A study of Mus musculus with 6 samples.

Results

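Potassium channel genes were followed in primary mouse astrocytes given the inflammatory cytokine TNF (tumour necrosis factor). All genes whose symbol starts with Kcn were taken, with 1 probe set per gene, the one with the highest mean signal. The rule gave 92 genes of 19926 measured, and it used no difference between the groups. They comprised 15 inward rectifiers (Kcnj), 14 two-pore channels (Kcnk), 35 voltage-gated subunits, 12 subunits of calcium- or sodium-activated channels, 13 accessory subunits and 3 antisense RNAs. The cultures came from C57BL/6J mice and carried no engineered allele according to the labels. The control group comprised 3 arrays of untreated astrocytes and the TNF group 3 arrays of astrocytes given TNF at 50 ng/mL, and both were collected at 24 h. Each RNA sample was read on 1 Affymetrix Mouse Gene 1.0 ST array. The labels do not say that the 3 replicates were separate cultures or animals, nor how the astrocytes were purified, so p-values speak only of the scatter among these 6 samples, and part of it may be technical.

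Potassium channels are membrane proteins that let potassium ions pass selectively, and they set the resting potential of most cells. Astrocytes rest at a strongly negative potential because inward rectifiers, chiefly Kir4.1 (Kcnj10), alone or with Kir5.1 (Kcnj16), and two-pore leak channels such as TWIK-1 (Kcnk1) and TREK-1 (Kcnk2) are open at rest. These channels also take up the potassium that active neurons release, together with the sodium pump and cotransporters, and gap junctions spread it through the astrocyte network.

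Values are log2 signals, so a difference of 1 is a doubling, and differences are TNF minus control. Signals of different probe sets depend on their probes as well as on the transcript, and no order of abundance between genes is drawn from them. As a scale, the mean signal over the 6 arrays had a lower quartile of 6.16, a median of 7.63 and an upper quartile of 9.24 over all genes. Of the 92 members, 26 lay below the lower quartile, 47 between it and the median, and 19 at or above the median. A low signal may be close to background, since no detection calls were used. Replicate 3 gave raised signals to dim genes in both groups: in 63.0% of the 73 members below the median its arrays were the highest of both groups, as in 50.5% of all genes below the median. The astrocyte markers had list means of 10.99 to 11.31 on the control arrays and 10.56 to 10.83 on the TNF arrays, and 11 of 12 lay at or above the median signal.

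The cultured astrocytes lost signal from a small set of potassium channels with TNF. At a Benjamini-Hochberg adjusted p under 0.05 in limma, 7 of the 92 members fell (7.61%, against 3.33% of all genes tested) and 1 rose (1.09%, against 3.87%). Those that fell were the inward rectifiers Kcnj13 and Kcnj10, the two-pore channel Kcnk2, the voltage-gated Kcnh5, Kcnc2 and Kcnd3, and Kcnmb1, a subunit of the large-conductance calcium-activated channel. Kcnf1, a voltage-gated subunit that forms no channel by itself, rose. The samples pair by replicate number, and with that number as a block 15 members were lower (16.3%, against 11.8% of all genes) and 3 higher (3.26%, against 9.73%). Groups did not overlap for 14 members on the lower side and 4 on the higher side, against 11.7% and 12.3% of all genes. The median difference over the 92 members was -0.05 (-0.00 over all genes), and 63 of them were below 0 (68.5%, against 50.6% of all genes). Within 0.25 of no difference lay 70 of the 92, and 14395 of all 19926 genes. In bulk RNA, fewer cells that express a gene and less RNA per cell cannot be told apart.

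**Figure D1:**
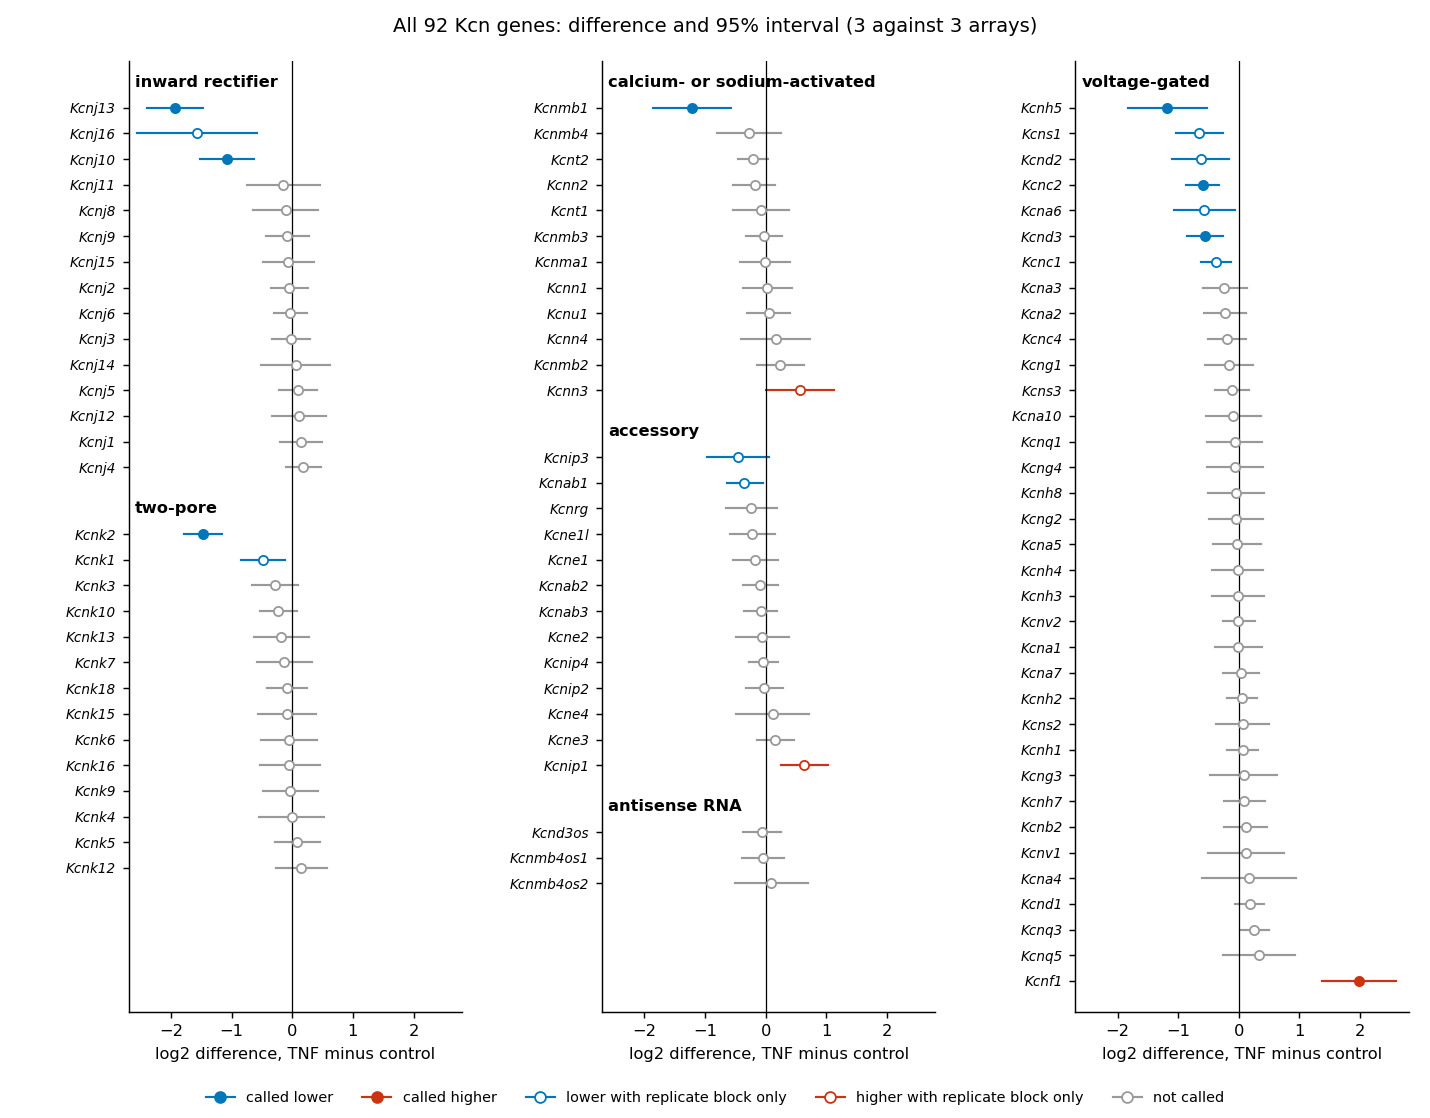
Log2 difference (TNF minus control, dots) with its 95% interval (lines, limma, 3 against 3 arrays) for all 92 Kcn genes, grouped by class. Filled dots passed an adjusted p under 0.05 (7 lower in blue, 1 higher in red) and open coloured dots passed only with the replicate block. Most members lie close to 0.

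The 19 members at or above the median signal were Kcnj10, Kcnj13, Kcnk1, Kcnk2, Kcnk3, Kcnk10, Kcnd1, Kcnd3, Kcnd3os, Kcnh5, Kcna2, Kcna6, Kcnf1, Kcng1, Kcnq5, Kcns3, Kcnn3, Kcnip3 and Kcne1l, the Kcne1-like beta subunit. The mean over both groups moves with the difference itself, so no count of calls is read from this ranking. Kcnf1 reached the median of 7.63 through the TNF arrays (7.14 ± 0.54 in controls and 9.13 ± 0.23 with TNF, mean ± SD, n = 3), and Kcnj13 through the controls (9.42 ± 0.36 and 7.49 ± 0.22). Kcnj16 and Kcnmb1 had control means of 7.90 ± 0.89 and 7.67 ± 0.55 and came to lie under it.

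**Figure D2:**
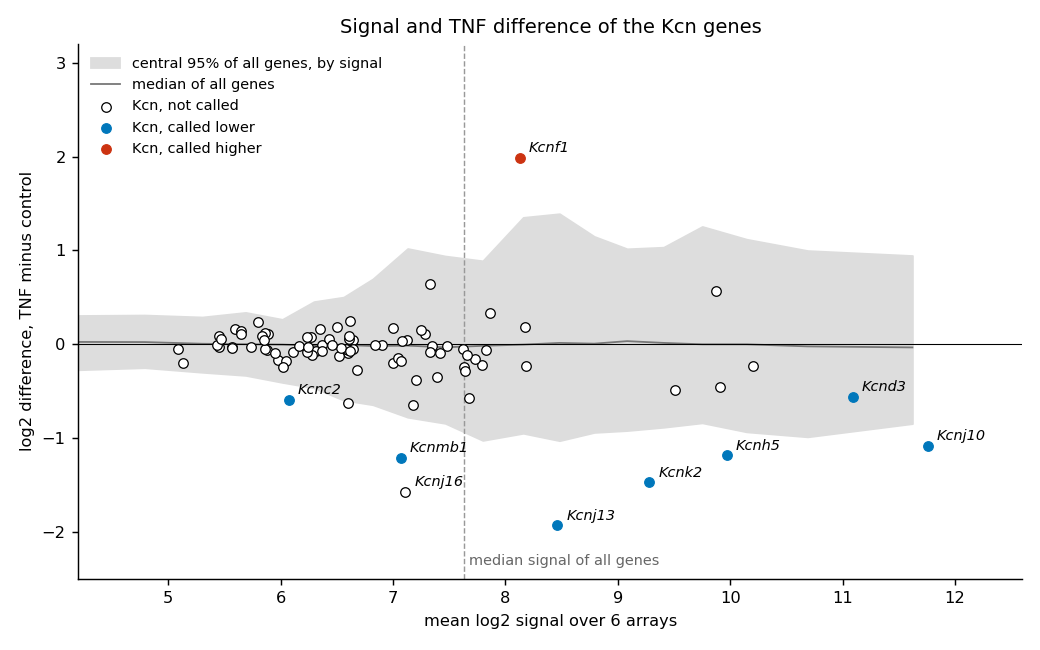
Mean log2 signal over 6 arrays (horizontal) against the log2 difference, TNF minus control (vertical), for the 92 Kcn genes (dots). The grey band holds the central 95% of all 19926 genes in 20 equal groups by signal and ends at the median signal of the brightest group. Kcnj13, Kcnk2, Kcnh5, Kcnmb1 and Kcnj16 lie well below the band and Kcnf1 above it, while most members sit at low signal near 0.

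Among the inward rectifiers, Kcnj10 encodes Kir4.1, the main resting potassium channel of astrocytes. Its signal was 12.44, 12.07 and 12.41 on control arrays 1, 2 and 3 and 11.52, 10.84 and 11.31 on the TNF arrays with the same numbers. Every TNF array lay below every control array, and the loss was similar in the 3 pairs (-0.92, -1.23 and -1.10). The fall of Kcnj10 was -1.08, or 2.12-fold (SE 0.19, 95% interval -1.53 to -0.63), with a limma adjusted p of 0.0157. The call was lost without control 1 (adjusted p = 0.0701) and without control 3 (0.0568), and without 2 of the 3 replicate numbers (up to 0.125), with the sign kept.

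Kcnj16 encodes Kir5.1, which forms no current of its own and joins Kir4.1 into a channel sensitive to pH. It read 8.71, 6.94 and 8.05 in controls 1 to 3 and 6.57, 5.80 and 6.61 with TNF. Replicate 2 was the lowest in both groups, and the groups did not overlap. The difference was -1.57 (SE 0.43, 95% interval -2.57 to -0.58), with an SD of 0.89 among the controls, and it did not pass (limma adjusted p = 0.0745). All 3 pairs were lower, and under the replicate block Kcnj16 passed (8.77e-04). It also passed without control 2 (-2.05, adjusted p = 0.0146) and with array weights (0.0305).

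Kcnj13 encodes Kir7.1, a weakly rectifying channel known from choroid plexus and retinal pigment epithelium. Its signals were 9.84, 9.20 and 9.23 in the controls and 7.65, 7.59 and 7.25 with TNF. No TNF array came near the controls, and the fall was the deepest of the 92 members. Its difference of -1.93 (SE 0.20) is a 3.81-fold fall, with an adjusted p of 0.00128 in limma, and it kept its call whichever of the 6 arrays was left out (adjusted p at most 0.00546). Of 9 markers of choroid plexus and pigment epithelium, a list written after these values were seen, 2 fell (22.2%, against 3.33% of all genes) and 1 rose (11.1%, against 3.87%). They were Folr1 at -0.62 and Rpe65, the retinoid isomerohydrolase, at -2.76, against Rlbp1, a retinaldehyde-binding protein that glia also express, at 0.93. The log2 signals of the 9 summed to between 65.4 and 67.7 on the control arrays and between 61.0 and 64.9 with TNF. These sums overlapped between groups once Rpe65, at 8.70 ± 0.36 and 5.94 ± 0.14 (mean ± SD, n = 3), was left out. Ttr (-0.47) and Otx2 (-0.25) were called in neither fit, and 1 of the 9, Clic6, lay below the lower quartile of all genes. With the block 3 were lower, Cldn2 (-0.45, adjusted p = 0.00594) being the one added. The part of such cells in the Kcnj13 difference was not tested.

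The other 12 inward rectifiers lay between -0.15 (Kcnj11, the pore subunit of the ATP-sensitive channel) and 0.18 (Kcnj4), and none was called with or without the block. Kcnj2, the classical strong rectifier Kir2.1, read 5.28, 4.99 and 5.07 in controls and 5.10, 4.88 and 5.21 with TNF. These signals lie below the lower quartile of all genes, and the groups overlapped (difference -0.05, 95% interval -0.36 to 0.26). The G protein-gated subunits Kcnj3 and Kcnj9 differed by -0.02 and -0.08, with intervals from -0.34 to 0.30 and from -0.43 to 0.27. Kcnj9 is the neighbour of Kcnj10, and Kcnj2 that of Kcnj16, in the RefSeq gene table, so each pair holds 1 gene with a lower signal and 1 whose groups overlapped. The overlapping genes were dim (mean over 6 arrays 6.23 for Kcnj9 and 5.09 for Kcnj2), and at such signals a fall may not be seen.

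**Figure D3:**
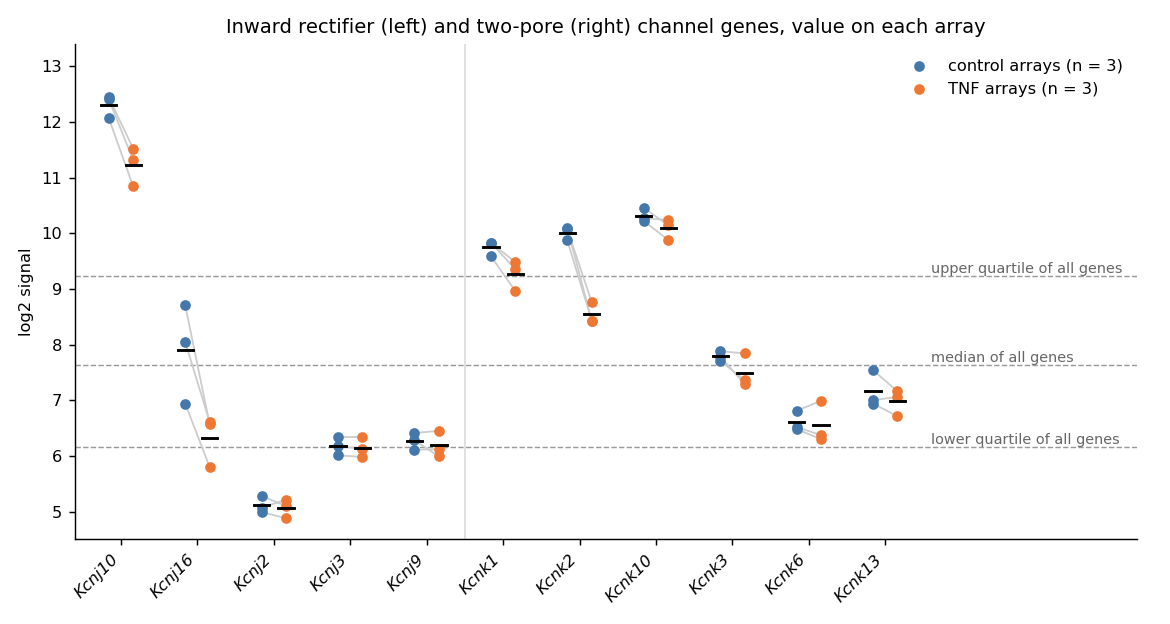
Log2 signal on each of 6 arrays (dots, controls blue and TNF orange, grey lines join arrays of the same replicate number, black bars are group means) for 5 inward rectifier and 6 two-pore channel genes. Dashed lines mark the quartiles of the mean signal of all genes. Kcnj10, Kcnj16, Kcnk1 and Kcnk2 are lower on every TNF array than on any control array, while Kcnj2, Kcnj3 and Kcnj9 overlap at low signal.

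Two-pore channels carry the leak conductance at rest. Kcnk2 encodes TREK-1, a channel opened by membrane stretch, heat and polyunsaturated lipids. It read 10.07, 9.87 and 10.09 in the controls and 8.76, 8.43 and 8.43 with TNF. The 2 groups were tight and far apart. The difference of -1.47 (SE 0.13, 95% interval -1.78 to -1.16), a 2.76-fold fall, had the smallest limma adjusted p among the members (6.74e-04). Kcnk2 kept its call whichever array (adjusted p at most 0.00688) or replicate number (at most 0.0213) was left out.

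Kcnk1, the gene of TWIK-1, read 9.83, 9.59 and 9.83 in controls and 9.48, 8.96 and 9.35 with TNF. Groups did not overlap, but the difference of -0.49 (SE 0.16) did not pass (limma adjusted p = 0.126), and it passed as lower with the block (0.00713). Kcnk10, which encodes TREK-2, the close relative of TREK-1, read 10.27, 10.46 and 10.22 against 10.24, 10.14 and 9.88. Here the groups overlapped, and the 95% interval of the difference ran from -0.54 to 0.08, so a fall as deep as that of Kcnk2 lies outside it. Whether the 2 genes differ in their response was not tested, since they are read by different probe sets. The acid-sensitive channel gene Kcnk3 differed by -0.29 (95% interval -0.66 to 0.09). Kcnk6, the gene of TWIK-2, differed by -0.05 (95% interval -0.51 to 0.41). No other two-pore gene was called in either fit, and the highest difference was 0.15 for Kcnk12.

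Kcnk13, Kcnn4 and Kcna3 encode channels that microglia use, and microglia are often found in astrocyte cultures. Kcnk13 differed by -0.18, Kcnn4 by 0.17 and Kcna3 by -0.24, and none of them passed in either fit. In limma none of the 13 microglia markers passed without the block (against 3.87% higher and 3.33% lower of all genes). At an unadjusted p under 0.05, 1 was higher and 0 lower. The markers were read with less precision than most genes (median SE 0.26, against 0.14 over all genes). With the block 3 of these markers were higher (23.1%, against 9.73% of all genes). Per array their log2 signals summed to between 83.0 and 98.9 in controls and between 84.6 and 99.0 with TNF, with replicate 3 the highest of both groups, and 3 of them lay below the lower quartile. Kcnn4, the intermediate-conductance calcium-activated channel, was also highest in replicate 3, at 7.37 and 7.48 against 6.65 to 7.04 elsewhere. So were 63.0% of the 73 members below the median signal and 50.5% of all genes below it. The part of microglia in these values was not tested.

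Voltage-gated subunits held the member that rose and 3 that fell (2.86% and 8.57% of 35, against 3.87% and 3.33% of all genes). With the block 7 were lower (20%, against 11.8%) and 1 higher (2.86%, against 9.73%). Kcnf1 (Kv5.1) is a silent subunit that changes the gating of Kv2 channels when it joins them. It read 6.59, 7.67 and 7.16 in controls and 9.00, 9.40 and 8.99 with TNF. From control signals at or under about the median of all genes it came close to the upper quartile on every TNF array. Kcnf1 rose by 1.99, or 3.97-fold (SE 0.26, 95% interval 1.38 to 2.60, limma adjusted p = 0.00421). It kept the call whichever single array was left out (adjusted p at most 0.0178) and lost it when both arrays of replicate 3 were (0.0647).

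Kcnh5 encodes a slow channel of the ether-a-go-go family. It read 10.03, 11.11 and 10.54 in controls and 9.37, 9.71 and 9.06 with TNF. Control 1 was the lowest control and its pair showed the smallest loss (-0.67, against -1.39 and -1.48). Kcnh5 fell by 1.18 (SE 0.28, 2.27-fold lower, limma adjusted p = 0.0456), and the call was lost with array weights (0.0673). Leaving out any single array but control 1 also ended it (adjusted p up to 0.116).

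Kcnd3 encodes Kv4.3, a channel of the fast A-type current. Its signals were 11.26, 11.29 and 11.57 in controls and 10.69, 10.86 and 10.88 with TNF. The groups were separate, with a fall of 0.56 (1.47-fold lower, SE 0.13, limma adjusted p = 0.039). The call was lost with arrays centred on their median (0.0531) and when any single array was left out (adjusted p from 0.0593 to 0.122). Its antisense RNA Kcnd3os was 7.86 ± 0.12 and 7.80 ± 0.20 (mean ± SD, n = 3) and overlapped between groups.

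Kcnd2, the gene of the related Kv4.2, read 6.79, 7.38 and 6.58 in controls and 6.35, 6.18 and 6.33 with TNF, a difference of -0.63 that passed with the block alone (adjusted p = 0.037). Kcnc2, a fast delayed rectifier of the Kv3 group, read 6.34, 6.39 and 6.37 against 5.62, 5.76 and 5.95. The controls agreed closely, near the lower quartile of all genes. Kcnc2 fell by 0.59 (SE 0.12, 1.51-fold lower, limma adjusted p = 0.0236), and leaving out any single array but TNF 3 ended the call (adjusted p up to 0.0909).

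A few further voltage-gated genes passed as lower with the block alone. They were Kcnc1 at -0.38 (adjusted p = 0.0162), the silent subunit gene Kcns1 at -0.65 (0.014) and Kcna6, of the Kv1 group, at -0.57 (0.00212). Kcna6 was the steadiest across pairs, at -0.62, -0.52 and -0.58. Of the 35 voltage-gated members 25 lay within 0.25 of no difference, as did 14395 of all 19926 genes. Kcnq3 and Kcnq5, of the M-current family, were at 0.25 and 0.33 and were not called, nor was Kcna5, the gene of Kv1.5, at -0.03.

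**Figure D4:**
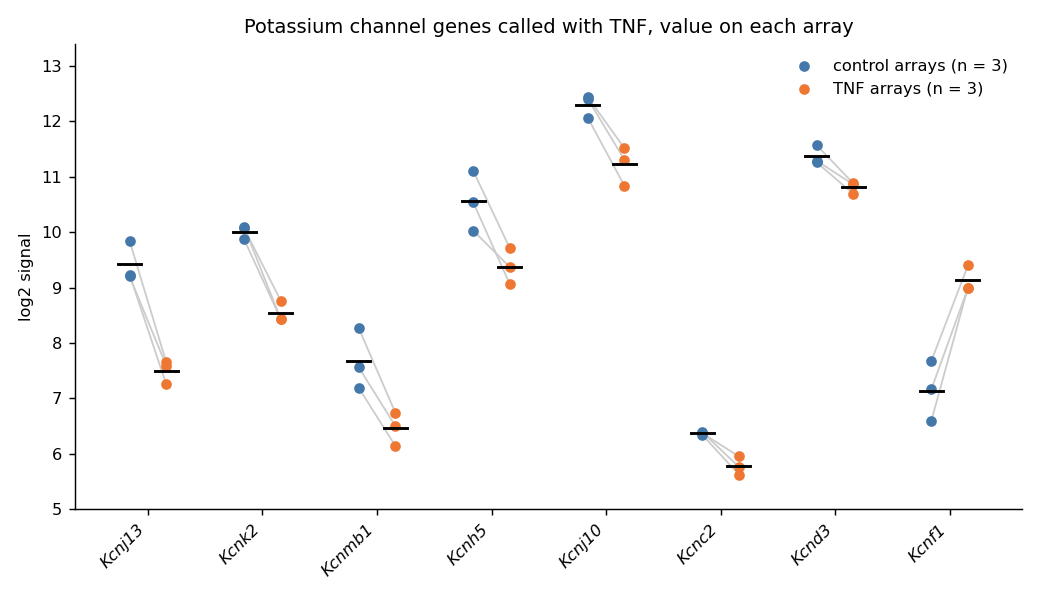
Log2 signal on each of 6 arrays (dots, controls blue and TNF orange, grey lines join arrays of the same replicate number, black bars are group means) for the 8 Kcn genes called at an adjusted p under 0.05. In the 7 genes that fell each TNF array lies below all controls, and for Kcnf1 each TNF array lies above all controls.

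Subunits of calcium-activated channels moved singly. Kcnmb1, the beta1 subunit that raises the calcium sensitivity of the BK channel and is best known from smooth muscle, read 7.19, 7.56 and 8.27 in controls and 6.14, 6.50 and 6.74 with TNF. Replicate 3 was the highest in both groups, and the groups did not overlap. Kcnmb1 fell by 1.21 (SE 0.28, 2.31-fold lower, limma adjusted p = 0.0409). Leaving out any single array but control 1 ended the call (adjusted p up to 0.121), and under the block Kcnmb1 passed (4.12e-04).

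Beside it, 1 of 11 fibroblast and mural markers fell (9.09%, against 3.33% of all genes), and 3 were lower with the block (27.3%, against 11.8%), Pdgfrb and Tagln being added. The one that fell was Acta2, smooth muscle actin, which went from 13.37 ± 0.09 to 12.41 ± 0.35 (mean ± SD, n = 3, limma adjusted p = 0.0174), and the smooth muscle gene Tagln differed by -1.10 (adjusted p = 0.0649, with the block 0.00293). The rest of the list did not fall with them. The median difference of the 11 was 0.01, with 5 below 0, and the highest was 0.20 (Col1a2). The mural marker Rgs5 was at 0.11. Signals of the list summed to between 86.3 and 91.3 on control arrays and between 83.1 and 90.4 with TNF, and 3 of the 11 lay below the lower quartile, Lum among them. The part of such cells in the Kcnmb1 difference was not tested.

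The pore gene of the BK channel, Kcnma1, read 5.24, 5.54 and 5.51 against 5.23, 5.25 and 5.79 and overlapped between groups at a low signal. Its difference was -0.01 (95% interval -0.42 to 0.40), and a second probe set gave 0.23 without a call. Kcnn3, a small-conductance channel gene, read 10.01, 9.04 and 9.69 in controls and 10.37, 10.00 and 10.08 with TNF. All 3 pairs were higher, by 0.36, 0.96 and 0.39, although control 1 overlapped the TNF arrays. Kcnn3 passed as higher with the block alone (difference 0.57, adjusted p = 0.0178). Kcnn2 differed by -0.18 and was not called.

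Accessory subunits adjust channels made by other genes. The 13 counted here are Kcnab, Kcne, Kcnip and Kcnrg genes. The beta subunits of the BK channel, such as Kcnmb1, also adjust a channel but were counted with the calcium-activated channels. None of the 13 was called in limma without the block (against 3.87% higher and 3.33% lower of all genes). At an unadjusted p under 0.05, 1 was higher and 1 lower. With the block 1 was higher and 2 lower (7.69% and 15.4%, against 9.73% and 11.8% of all genes). Kcnip1, a calcium-binding partner of Kv4 channels, read 6.94, 7.22 and 6.86 in controls and 7.63, 7.93 and 7.39 with TNF. Its 3 TNF arrays lay above all controls (difference 0.64, SE 0.17, limma adjusted p = 0.0644), and it passed as higher with the block (0.00158). Kcnmb1 lies inside the Kcnip1 gene in the RefSeq table, on the other strand, and its signal went the opposite way. Kcnip3, another Kv4 partner, also known as the repressor DREAM, read 10.63, 9.92 and 9.87 against 9.91, 9.60 and 9.51 and passed as lower with the block alone (-0.46, adjusted p = 0.0169). Kcnab1, a beta subunit of Kv1 channels, did so too (-0.35, adjusted p = 0.0366). The 3 antisense RNAs lay between -0.06 and 0.09.

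The promoters of the 4 members with the smallest adjusted p are shown, to place their start sites beside the values: Kcnk2, Kcnj13 and Kcnj10, which fell, and Kcnf1, which rose. Each is the 250 bases before a gene start, 5′ to 3′ on the gene's strand, from RefSeq on GRCm38.p6. Capitals mark matches to 3 motifs searched on both strands in 300 bases that end 50 bases after the start: the NF-kB consensus, the AP-1 element TGACTCA, and the TATA box in the form TATAAA. Kcnk2 has 4 listed starts, and the second is given because it alone held a match.
Kcnk2 (chr1:189344193-189344442, minus strand): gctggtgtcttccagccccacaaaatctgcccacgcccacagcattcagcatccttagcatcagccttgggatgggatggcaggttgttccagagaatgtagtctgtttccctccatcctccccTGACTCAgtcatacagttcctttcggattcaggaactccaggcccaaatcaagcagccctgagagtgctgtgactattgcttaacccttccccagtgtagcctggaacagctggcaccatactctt
Kcnj13 (chr1:87394730-87394979, minus strand): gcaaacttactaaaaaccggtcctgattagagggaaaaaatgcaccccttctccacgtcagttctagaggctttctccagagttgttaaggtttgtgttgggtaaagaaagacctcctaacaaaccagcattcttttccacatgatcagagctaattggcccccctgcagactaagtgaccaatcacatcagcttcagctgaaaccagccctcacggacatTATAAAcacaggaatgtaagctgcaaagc
Kcnj10 (chr1:172340960-172341209, plus strand): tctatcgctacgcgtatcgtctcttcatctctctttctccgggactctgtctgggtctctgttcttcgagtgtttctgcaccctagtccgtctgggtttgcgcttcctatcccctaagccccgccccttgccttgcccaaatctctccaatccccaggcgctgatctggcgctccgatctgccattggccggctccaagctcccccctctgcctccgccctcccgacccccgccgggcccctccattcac
Kcnf1 (chr12:17176889-17177138, minus strand): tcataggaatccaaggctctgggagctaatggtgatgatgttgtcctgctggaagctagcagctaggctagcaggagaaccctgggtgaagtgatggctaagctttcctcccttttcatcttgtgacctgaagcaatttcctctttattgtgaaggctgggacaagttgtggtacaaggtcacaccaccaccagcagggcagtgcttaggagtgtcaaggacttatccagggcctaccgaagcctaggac

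The promoter table held 70 of the 92 members, with 95 starts. Among the sequences shown, Kcnj13 had a TATA box that begins 29 bases upstream of the start, a motif found in 13.6% of all 32851 promoters. Kcnk2 had an AP-1 type match 126 bases upstream of 1 of its 4 starts, a motif found in 5.20% of all promoters and in 2 of the 95 starts. That start was picked for its match, so the share per promoter does not say how rare a match is in a gene with 4 starts. Kcnj10 and Kcnf1 held no match to the 3 motifs in this window. The NF-kB consensus was in 12 of the 95 starts (against 8.46% of all promoters), and in no listed start of Kcnk2, Kcnj13, Kcnj10 or Kcnf1. Among the 8 called genes it was in 3 of 14 listed starts. All 3 were starts of Kcnc2, which fell, and they share the same site, so these counts include that site 3 times. Such matches describe letters, not binding.

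Partners of these channels in potassium handling moved both ways. Of 10 measured pumps and cotransporters 2 fell (20%, against 3.33% of all genes) and 1 rose (10.0%, against 3.87%). With the block 5 were lower (50.0%, against 11.8%) and 2 higher (20%, against 9.73%). Atp1b2, the sodium pump subunit typical of astrocytes, read 12.55, 12.41 and 12.30 in controls and 11.17, 11.24 and 11.08 with TNF, a fall of 1.25 (2.39-fold lower, SE 0.11, limma adjusted p = 6.56e-04). Each group was tight, and the call held whichever array was left out. Fxyd6, a regulator of the pump, fell by 0.99 (adjusted p = 0.00564), with the call lost without replicate 1 or 2 (up to 0.0834). Slc12a7, the potassium-chloride cotransporter KCC4, rose by 0.89 from 8.87 ± 0.02 to 9.76 ± 0.04 (mean ± SD, n = 3, adjusted p = 0.00169), and lost its call without replicate 1 (0.0602). Slc12a2, the inward cotransporter NKCC1, differed by -0.65 and passed as lower with the block alone (0.00292). The alpha subunits of the pump were not analysed here.

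Genes that anchor Kir4.1 at endfeet or couple astrocytes gave 3 lower (23.1%, against 3.33% of all genes) and 1 higher (7.69%, against 3.87%) of 13. With the block 4 were lower (30.8%, against 11.8%) and 3 higher (23.1%, against 9.73%). Gja1, connexin 43, read 11.21, 10.62 and 11.04 in controls and 10.17, 9.86 and 9.84 with TNF, a fall of 1.00 (SE 0.18, adjusted p = 0.0142) whose call was lost for 3 of the 6 arrays when left out. Dystrophin (Dmd) fell by 0.65 and its partner dystrobrevin (Dtna) by 0.51, with adjusted p of 0.0334 and 0.0284, and leaving out 1 array ended the call of Dtna for all 6 arrays and of Dmd for 5. Dlg4, the scaffold PSD-95, rose by 0.75 (adjusted p = 0.0148), and its call was lost without control 1 (0.0561) and without each replicate number (up to 0.155). The water channel Aqp4 was higher on every TNF array than on any control array (difference 0.60, adjusted p = 0.0718), and it passed as higher with the block (0.0069). Hepacam, a cell adhesion partner of Mlc1, was at -0.83 and passed as lower with the block alone (5.77e-04).

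Among 14 channel partners with other symbols, only Lgi1, a secreted protein linked to Kv1 channels, was called without the block (7.14%, against 3.33% of all genes), and with it 3 were lower (21.4%, against 11.8%). Lgi1 fell by 0.56 from a low signal of 5.45 ± 0.19 (mean ± SD, n = 3, limma adjusted p = 0.0445), and lost the call for 5 of the 6 arrays when left out. The list's median difference was -0.09. The sulfonylurea receptors Abcc8 and Abcc9, partners of Kcnj11 and Kcnj8, differed by 0.05 and 0.11, and Dpp6 and Dpp10, partners of Kv4 channels, by -0.16 and 0.11. Over the 3 lists 6 of 37 genes fell and 2 rose (16.2% and 5.41%, against 3.33% and 3.87% of all genes), and with the block 12 were lower and 5 higher (32.4% and 13.5%, against 11.8% and 9.73%).

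**Figure D5:**
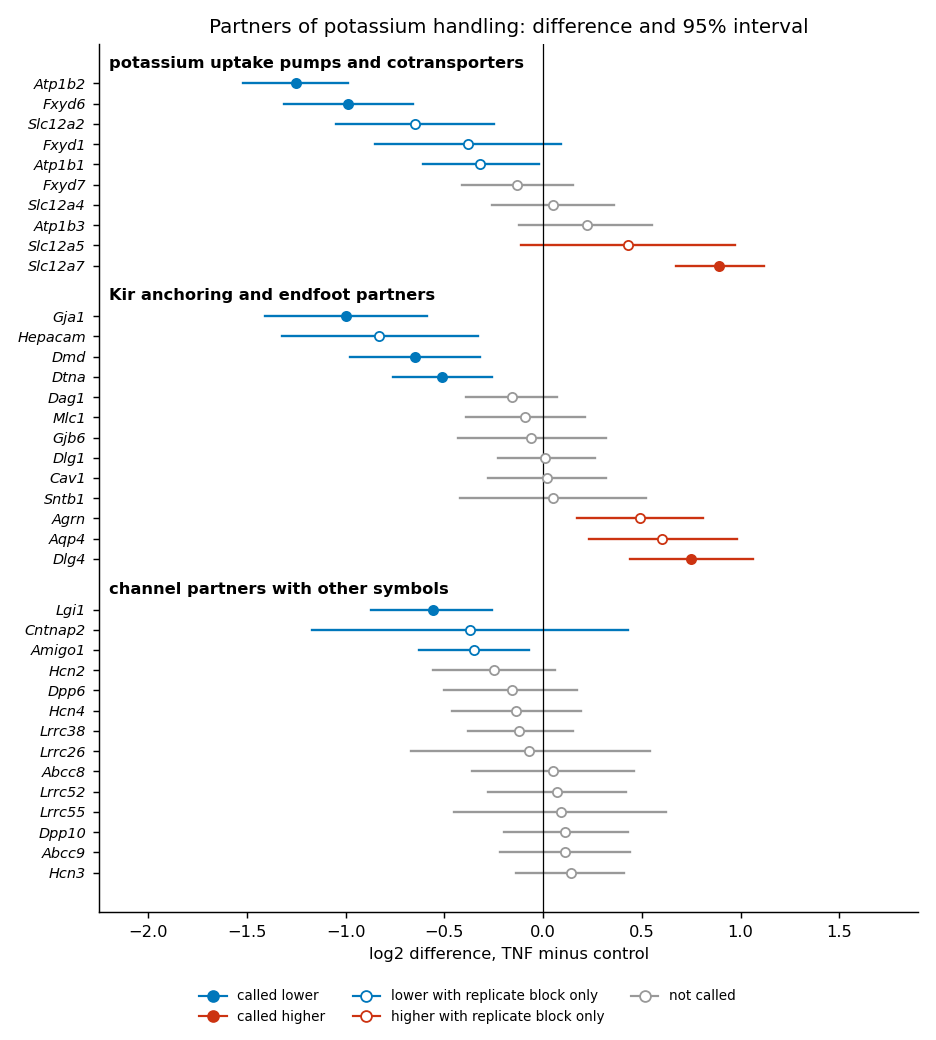
Log2 difference (TNF minus control, dots) with its 95% interval (lines, limma, 3 against 3 arrays) for 37 genes of 3 lists of potassium handling partners. Filled dots passed an adjusted p under 0.05 and open coloured dots passed only with the replicate block. Atp1b2 at -1.25 and Slc12a7 at 0.89 are the outermost members.

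Of the other cell types, 1 of 11 oligodendrocyte lineage markers (Olig1, 9.09%), 1 of 13 neuron markers (Map2, 7.69%) and 1 of 10 endothelial markers (Kdr, 10%) fell. The share over all genes was 3.33%, and none of these markers rose without the block. With the block 15.4% of the neuron markers were lower and 7.69% higher (against 11.8% and 9.73% of all genes). Stmn2 (-0.39, adjusted p = 0.0398) was added as lower and Gad1 (0.55, 0.00792) as higher among them. Their summed signals ran from 81.6 to 82.4 in controls and 80.0 to 81.4 with TNF for the oligodendrocyte lineage, 89.4 to 92.2 and 88.2 to 90.9 for neurons, and 62.2 to 64.9 and 60.8 to 65.1 for endothelium. Below the lower quartile lay 1, 6 and 2 of these markers. Their part in the channel differences was not tested. Of the 12 astrocyte markers 4 fell (33.3%, against 3.33% of all genes), namely Glul, Aldoc, Gja1 and Fgfr3, and none rose in limma (2 higher at an unadjusted p under 0.05). With the block 8 were lower (66.7%, against 11.8%), with Gfap, S100b, Sox9 and Ndrg2 added, and 2 were higher (16.7%, against 9.73%), Aqp4 and Slc1a2. The signals of the list summed to between 132 and 136 in controls and between 127 and 130 with TNF, and the part of this shift in the channel differences was not tested.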

How the data were processed

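Signals were deposited as log2 values for 35544 probe sets on 6 arrays. Per the submitters' processing notes in the labels, the authors used RMA, which corrects background, normalizes quantiles and summarises probes, and limma. Software versions: not given in the sources used here. As no note states it, the log base was read from the values (2.04 to 14.37). Array values of this kind understate large folds. The 21777 probe sets with exactly 1 symbol in the platform annotation were used, at the highest mean per gene, which left 19926 genes. All 92 members matched RefSeq by Entrez number, and 3 of them (Kcna2, Kcnh8 and Kcnma1) had a second probe set.

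TNF minus control was tested with limma 3.58.1 in R 4.3.3 (lmFit, eBayes, two-sided) over all 19926 genes, with 4 residual degrees of freedom, and adjusted by Benjamini-Hochberg. Precision is limited by the number of arrays (median SE 0.14). The replicate numbers come from the labels, and the values show that they pair the samples: same-numbered arrays deviated together, with correlations of 0.55, 0.65 and 0.75 over genes. A blocked fit is therefore given beside results whose call or count it changed. The blocked fit had 2 residual degrees of freedom and 5.2 from the variance shared over all genes, against 4 and 3.7 without the block. Its p-values therefore rest more on that shared variance. On simulated data with 200 of 19926 genes changed, 85 to 94 of 100 changes of 2-fold and all 100 of 4-fold were called in 5 runs. The simulated arrays were drawn independently with the spread that limma estimated, without the shared deviation of same-numbered arrays. These shares therefore do not give the recovery on the real arrays.

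Members and lists were chosen with earlier results of these data known. Genes named were those called in either fit, a set of glial channels, the 2 of each class with the largest difference, and called partners. Others were named after their values were seen. Promoters are from RefSeq (GRCm38.p6), and the motifs searched were settled after the values were seen. Python 3.11.15 with pandas 2.3.3, numpy 2.4.6, scipy 1.17.1 and matplotlib 3.10.9 prepared the tables and plots. Alternatives were other centring, quantile normalization, filters on dim genes, variance models, array weights, the replicate block, other probe sets, arrays left out and stricter thresholds.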

Additional observations from a re-analysis of the deposited data

How the results depend on the processing

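Without the block 7 Kcn genes were lower and 1 higher, and with the replicate block 15 were lower and 3 higher. Array weights gave 9 lower and 2 higher. Calls over all 19926 genes also rose with these weights, from 663 lower and 771 higher to 973 and 1154. An adjusted p under 0.01 left 2 lower, Kcnk2 and Kcnj13. With 1 array left out 2 to 5 were lower and 1 to 2 higher, and with a replicate number left out 2 to 4 were lower and 0 to 1 higher. Calls over all 19926 genes dropped too, from 663 lower and 771 higher. They came to 315 to 455 lower and 465 to 669 higher with 1 array left out. With a replicate number left out they came to 106 to 231 lower and 273 to 401 higher. Of the 37 partner genes 6 were lower and 2 higher in limma (unadjusted p under 0.05: 10 and 4). The block gave 12 lower and 5 higher, and 4 were higher without genes below the median, with trend and robust variance or with array weights. In those settings calls of higher genes rose over all genes too, from 771 of 19926. They came to 890 of 9963 without genes below the median, 880 with trend and robust variance and 1154 with array weights. An adjusted p under 0.01 left 2 lower and 1 higher, and a size of at least 1 left 2 lower and 0 higher. With 1 array left out 2 to 5 partners were lower and 1 to 3 higher, and with a replicate number left out 1 to 2 and 0 to 1. Of the 8 called Kcn genes, Kcnj13 and Kcnk2 alone kept their call whichever replicate number was left out. The block changed no call of a named gene other than those given beside the genes or lists, and of Itgam, Cd68, C1qb, Agrn, Slc12a5, Atp1b1, Fxyd1, Cntnap2 and Amigo1. The cause of these changes was not tested beyond the fewer samples or genes that some settings leave.

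A set of genes near no difference, none of them called, changed sign. Kcnma1 was at 0.01 with arrays centred on their median and at 0.23 with the probe set of highest variance. With 1 array or replicate number left out, Kcnma1 ranged from -0.19 to 0.13, Kcna5 from -0.21 to 0.12, Kcnj2 from -0.14 to 0.04 and Kcnj3 from -0.11 to 0.07. Kcnj9 ranged from -0.21 to 0.03, Kcnk13 from -0.30 to 0.01, Kcnk6 from -0.27 to 0.08 and Kcnn4 from -0.03 to 0.40. No called gene changed sign under any alternative run. Most members have signals where background may limit what can be seen, and Kcnc2 and Kcnmb1 had no value without genes below the median.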
